A study of Mus musculus with 10 samples.

Results

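H3K4me1, a histone mark of enhancers, was compared with H3K9me3, a mark of heterochromatin, in Glast+ cells of the mouse retina. The members are the 4 ChIP-seq libraries of these marks, 2 experiments each, out of 10 libraries in the series, of which 8 have a list of enriched regions (islands). All came from retinas of C57BL/6 mice at postnatal day 28, with no treatment and no transgene named in the labels. The cells were isolated by Glast, a glutamate transporter (gene Slc1a3) that marks Müller glia, the main glial cells of the retina. The replicates are named Exp1 and Exp2, and the labels do not say whether they came from separate animals, so differences between them may be technical. The lists hold 52342 and 37200 islands of H3K4me1 and 9690 and 5621 of H3K9me3 in Exp1 and Exp2. "In both experiments" below means bases that lie in an island of each experiment, which gave 33380 regions of H3K4me1 and 5989 of H3K9me3.

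H3K4me1 is written at enhancers and around promoters by the methyltransferases Kmt2c and Kmt2d, and marks both active and poised elements. H3K9me3 is written by Setdb1 and the Suv39h enzymes and bound by HP1 proteins. In mouse chromosomes it packs satellite repeats, endogenous retroviruses, which KRAB zinc finger proteins target through Trim28, and large clusters of receptor and zinc finger genes.

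The 2 marks were not called at equal resolution. H3K4me1 islands were built from windows of 200 bp and H3K9me3 islands from windows of 3000 bp, and the smallest gaps left between islands were 0.8 and 24 kb. A border of H3K9me3 is therefore known to no better than 3 kb, and a short stretch free of the mark inside an island is not seen. The median H3K4me1 island was 3.2 kb in Exp1 and 3.0 kb in Exp2, and the median H3K9me3 island 30 and 45 kb. The lists hold no read counts, so the depth of each library is unknown. Each library pools a cell population, so bases with both marks need not carry them in the same cell. With 2 experiments against 2, an exact two-sided permutation test cannot give less than 0.333, so values are given per experiment and as a description.

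The label was checked on marker genes. H3K4me1 lay in 12 of 12 Müller glia markers in Exp1 and in 10 of 12 in Exp2. The 2 without it in Exp2 were Slc1a3 itself, with 25.9 kb in Exp1, and Glul, the glutamine synthetase gene, with 4.60 kb in Exp1. All 8 rod markers carried H3K4me1 in both experiments, over a median of 76.3% of the gene span, against 18.7% at Müller glia markers. It lay in both experiments in 4 of 6 cone, 3 of 4 endothelial, 3 of 3 astrocyte and 3 of 4 ganglion cell markers. Of 5 microglia markers 1 carried it. Over all protein-coding genes the share was 60.5%, so these counts do not set Müller glia apart from most of the other cell types. None of the markers of 7 cell types held H3K9me3 in both experiments. What rod chromatin adds to the H3K4me1 lists was not tested.

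Promoter sequences are shown for starts with both marks and with either mark alone. They run from 250 bases before to 50 after the start and come from RefSeq on GRCm38.p6, the coordinates of mm10, with each CG dinucleotide in capitals. At the first 3, H3K4me1 and H3K9me3 covered the same bases within 1 kb of the start in both experiments. They are Mkrn3, an imprinted ubiquitin ligase gene (chr7:62420104-62420403, minus strand), the zinc finger gene Zfp110 (chr7:12834511-12834810, plus strand) and Unc93a, which encodes a membrane protein (chr17:13131742-13132041, minus strand). Nrl, the transcription factor of rods (chr14:55524203-55524502, minus strand), had H3K4me1 alone, and Vmn1r50, a vomeronasal receptor gene (chr6:90107025-90107324, plus strand), had H3K9me3 alone. Zfp110, Unc93a, Nrl and Mkrn3 follow from the rule for named genes, and Vmn1r50 was chosen after its values were seen.
Mkrn3: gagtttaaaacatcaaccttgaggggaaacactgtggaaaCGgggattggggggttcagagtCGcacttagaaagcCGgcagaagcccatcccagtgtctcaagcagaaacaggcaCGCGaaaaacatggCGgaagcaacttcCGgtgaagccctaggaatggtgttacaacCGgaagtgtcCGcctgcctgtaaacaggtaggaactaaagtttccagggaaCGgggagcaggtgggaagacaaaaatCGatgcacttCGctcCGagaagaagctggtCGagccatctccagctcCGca
Zfp110: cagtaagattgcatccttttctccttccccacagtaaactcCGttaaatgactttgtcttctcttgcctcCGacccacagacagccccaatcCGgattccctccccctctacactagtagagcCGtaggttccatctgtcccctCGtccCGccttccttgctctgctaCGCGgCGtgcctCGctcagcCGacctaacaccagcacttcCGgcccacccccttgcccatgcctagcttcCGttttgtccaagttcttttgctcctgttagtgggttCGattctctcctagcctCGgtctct
Unc93a: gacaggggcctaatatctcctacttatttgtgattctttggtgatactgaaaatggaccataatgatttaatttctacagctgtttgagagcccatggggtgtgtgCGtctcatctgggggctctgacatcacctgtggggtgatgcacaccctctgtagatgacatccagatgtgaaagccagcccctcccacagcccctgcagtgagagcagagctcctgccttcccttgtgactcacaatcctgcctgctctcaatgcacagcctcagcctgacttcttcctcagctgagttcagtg
Nrl: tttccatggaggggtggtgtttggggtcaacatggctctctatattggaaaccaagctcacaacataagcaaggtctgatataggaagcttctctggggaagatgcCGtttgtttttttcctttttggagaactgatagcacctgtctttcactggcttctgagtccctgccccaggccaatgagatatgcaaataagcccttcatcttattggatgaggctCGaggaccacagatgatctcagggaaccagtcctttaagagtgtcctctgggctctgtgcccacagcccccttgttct
Vmn1r50: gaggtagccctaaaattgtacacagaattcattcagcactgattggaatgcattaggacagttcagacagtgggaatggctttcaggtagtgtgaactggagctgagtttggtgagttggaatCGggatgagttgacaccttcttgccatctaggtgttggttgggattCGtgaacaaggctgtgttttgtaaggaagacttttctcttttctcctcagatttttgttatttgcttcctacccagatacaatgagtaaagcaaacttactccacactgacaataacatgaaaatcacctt

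Mkrn3 and Zfp110 hold 15 CG dinucleotides each in 300 bases, Nrl and Vmn1r50 hold 2 each and Unc93a holds 1. The printed sequences thus do not separate the classes by CG, and Nrl lies far below the median of 22 in starts with H3K4me1 and no H3K9me3. Promoters of 17492 protein-coding genes could be read. Only 160 starts (0.915%) had both marks on the same bases. Their median ratio of observed to expected CG was 0.637, against 0.775 at 9130 starts with H3K4me1 and no H3K9me3, and 0.125 at 2020 starts with H3K9me3 and no H3K4me1. The starts with both marks thus lay nearer in composition to those with H3K4me1. H3K4me3, the mark of active promoters, lay at 86.9% of the starts with both marks, at 91.6% of those with H3K4me1 and no H3K9me3, and at 4.90% of those with H3K9me3 and no H3K4me1. Of the 160, 30 (18.8%) belonged to zinc finger genes and 35 (21.9%) lay on chromosome 14, against 1.86% and 3.86% of all 17492 starts. Most of the chromosome 14 starts lay close together, from Gm2897 (chr14:3049035) to Gm38418 (chr14:7658887), mainly at genes with Gm names. They were thus not spread over the chromosome. In 23 of the 160 starts (14.4%) at least 50% of the words of 50 bases recurred in another promoter, and 6 of these lay on chromosome 14. The share was 0.592% of the starts with H3K4me1 and no H3K9me3 and 24.3% of those with H3K9me3 and no H3K4me1. In Unc93a 26.3% of the words were found elsewhere. Reads from near-identical copies can be placed at either copy, and how the alignment treated them is not given in the sources used here.

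H3K4me1 was scarce inside H3K9me3. In both experiments the marks shared 1.72 Mb, where their coverages, multiplied chromosome by chromosome, would give 18.4 Mb. H3K4me1 covered 119 Mb (4.48% of the genome) and H3K9me3 438 Mb (16.5%). Of the H3K4me1 length, 1.45% lay in H3K9me3. Taken alone, Exp1 shared 5.97 Mb where 54.5 Mb would be given, and Exp2 shared 11.4 Mb where 24.7 Mb would be given. The share of H3K4me1 in H3K9me3 was 2.38% in Exp1 and 7.99% in Exp2, below the H3K9me3 coverage of 22.9% and 18.1%. Both experiments therefore gave the same direction, and their sizes differed.

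The H3K4me1 islands that lay inside H3K9me3 were weaker than the rest by the authors' p-values, most of all in Exp2. In Exp1, 1639 islands (3.13%) lay wholly inside, with a median −log10 p of 12.1, against 18.3 for the islands free of H3K9me3. In Exp2, 3441 (9.25%) lay wholly inside, with a median of 2.19, against 11.1. A p-value above 0.05 was listed for 818 of the 3441 (23.8%), and for 0.721% of the Exp2 islands outside H3K9me3. The H3K4me1 found in Exp2 alone, 24 Mb, lay in H3K9me3 for 38.5% of its length and in H3K27me3, the Polycomb mark, for 44.1%. The 132 Mb found in Exp1 alone lay in H3K9me3 for 1.34%. With islands at or below the median p-value of their list, the log2 ratio of shared to computed length was -4.61 in Exp1 and -3.48 in Exp2, against -3.19 and -1.11 with all islands.

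Seen from the heterochromatin, most H3K9me3 regions held no H3K4me1 at all. Beyond the first 3 Mb of each chromosome, 5612 of 5980 regions present in both experiments (93.8%) were free of it. In Exp1, 86.0% of 9678 islands there were free, and in Exp2 66.6% of 5612. The share with H3K4me1 was similar up to a width of 300 kb, at 5.58% of regions under 30 kb, 5.05% of those of 30 to 100 kb and 7.42% of those of 100 to 300 kb. Above 300 kb it lay in 46 of 180 regions (25.6%), but wider regions have more room to hold some. By length, H3K4me1 covered 0.903% of regions under 30 kb, 0.312% at 30 to 100 kb and 0.536% at 100 to 300 kb. Above 300 kb it covered 0.250%, the lowest of the 4 classes. H3K9me3 shared by the experiments held H3K4me1 over 0.797% of its length in Exp1 and 2.50% in Exp2. Length free of H3K9me3 in both held 12.2% and 6.48%.

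Every autosome gave less shared length than its 2 coverages would, in each experiment and in both. In both experiments the log2 ratio of shared to computed length ran from -5.17 on chromosome 15 to -2.08 on chromosome 17, with a median of -3.78 over 19 autosomes. In Exp1 it ran from -4.23 on chromosome 7 to -2.48 on chromosome 17, and in Exp2 from -2.26 on chromosome 2 to -0.47 on chromosome 12. The order of chromosomes was thus not the same in the 2 experiments. Chromosome 7, which holds many olfactory, vomeronasal and zinc finger genes, had the most H3K9me3 of the autosomes (28.9%) beside H3K4me1 of 5.78%, and a log2 of -5.06. Among the autosomes, chromosome 11 had the least H3K9me3 (7.87%) and the most H3K4me1 (9.01%). Across the 19 autosomes, H3K4me1 coverage followed the number of genes per Mb (Spearman's correlation 0.809 in both experiments, 0.812 in Exp1 and 0.823 in Exp2). Across the same autosomes it followed H3K9me3 coverage only weakly (-0.114, -0.289 and -0.06). These correlations are over chromosomes of the same libraries and describe them.

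**Figure D1:**
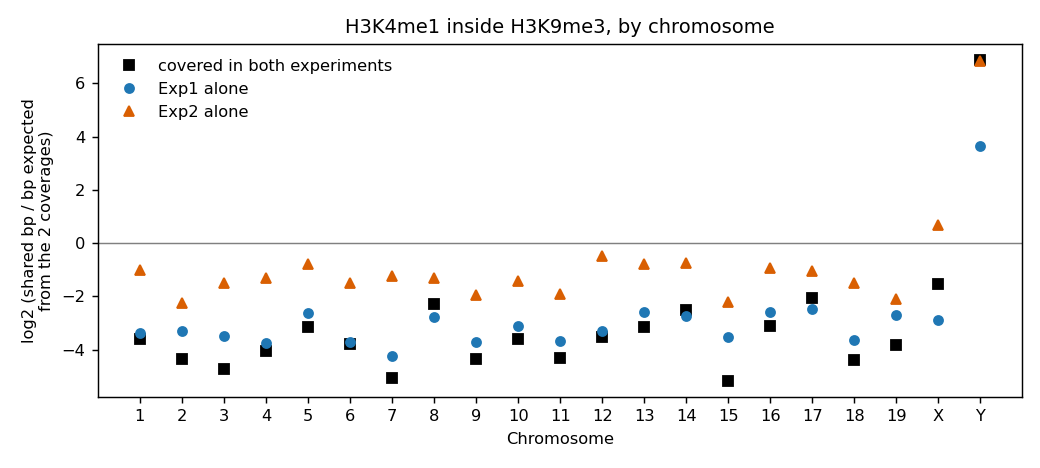
Log2 ratio of the length shared by H3K4me1 and H3K9me3 to the length computed from their 2 coverages (vertical axis), for each mouse chromosome (horizontal axis); squares are bases covered in both experiments, circles Exp1 and triangles Exp2. All 19 autosomes lie below 0 in each series of points, Exp2 lies nearer 0 than Exp1 on each autosome, X lies above 0 in Exp2 alone, and Y lies above 0 throughout.

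The sex chromosomes stood apart. The X chromosome had the highest H3K9me3 coverage (36.7% in both experiments) and H3K4me1 over 0.326% of its length. Of that H3K4me1, 12.7% lay in H3K9me3, with a log2 of -1.53. The experiments went in opposite directions there, with 5.88% of H3K4me1 inside H3K9me3 in Exp1 (log2 -2.88) and 65.9% in Exp2 (log2 0.67). The number of H3K4me1 islands on X was alike, 622 in Exp1 and 619 in Exp2. In Exp2 the share fell to 57.2% (log2 0.47) over the 514 islands with a p-value of 0.05 or less, and to 22.5% (log2 -0.83) over the 109 not above the median of the list. On the Y chromosome 100% of the H3K4me1 in both experiments lay in H3K9me3, but this was 81.8 kb in all, and 65.4 kb of it was 1 region over Mid1-ps1.

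Windows of 200 kb compare the marks on a scale far wider than the windows in which they were called. The 7265 windows with no H3K9me3 in both experiments held H3K4me1 over 6.74% of their length on average, and 30.3% of them held none. The 574 windows fully inside H3K9me3 held 0.227%, and 86.4% held none. In Exp1 the mean fell from 17.1% to 0.464% between the same classes. In Exp2 it fell from 7.61% to 1.37% in windows covered for 50 to 75%, and was 3.21% in windows fully covered, of which 41.0% held no H3K4me1.

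**Figure D2:**
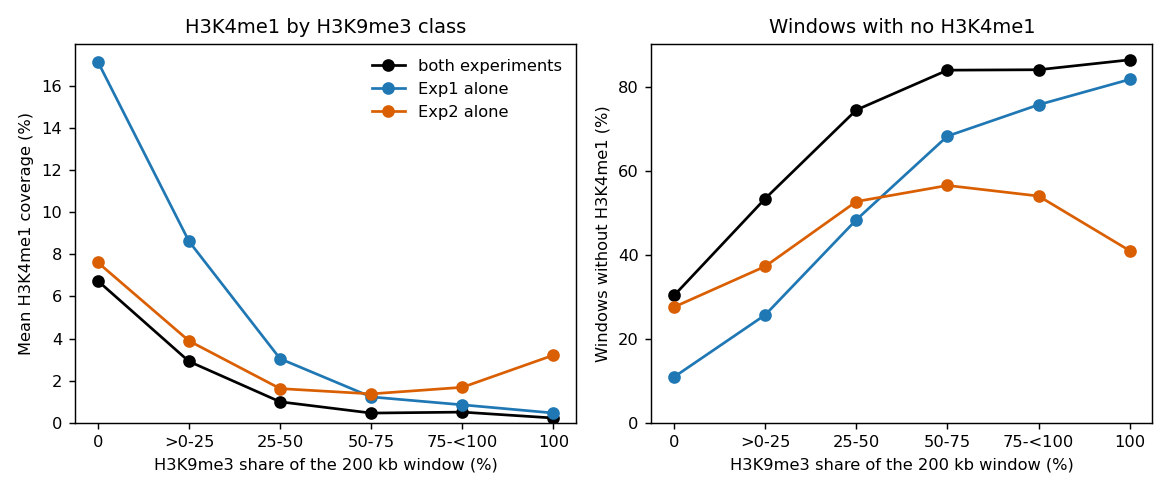
Left, mean H3K4me1 coverage (%) of 200 kb windows, and right, share of windows with no H3K4me1 (%), by the share of the window in H3K9me3 (horizontal axis, %); black is both experiments, blue Exp1 and orange Exp2. Mean coverage is highest at 0% H3K9me3 in each (6.74, 17.1 and 7.61%), and the Exp2 line turns up again to 3.21% in fully covered windows.

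H3K4me1 stayed low far beyond the edge of H3K9me3 and rose slowly with distance. In both experiments it covered 0.892% of the first 3 kb outside a border, 1.41% at 6 to 12 kb, 2.38% at 24 to 50 kb, 4.55% at 100 to 200 kb and 9.03% beyond 500 kb. Exp1 rose from 3.45% to 24% and Exp2 from 1.25% to 10.2% over the same span. H3K4me1 in the first 10 kb outside was 0.169 of that beyond 100 kb in both experiments, 0.242 in Exp1 and 0.193 in Exp2. In each experiment the level rose from each distance class to the next, with the lowest value beside the border. Genes are also fewer near borders, with 20.4% of the first 3 kb in protein-coding gene spans against 50.2% beyond 500 kb. The rise was present within genes, from 2.67% to 14%, and between genes, from 0.436% to 4.02%. Bases far from a border lie only in wide gaps between H3K9me3 regions, whereas narrow gaps add only near bases. Distance and gap width therefore cannot be told apart in this profile.

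Inside H3K9me3 the level was low throughout in both experiments, 0.72% in the last 3 kb before the border, 0.386% at 3 to 6 kb and 0.266% deeper than 100 kb. Exp1 gave 1.71%, 0.998% and 0.491% at these depths, and Exp2 4.07%, 3.38% and 3.17%. In Exp2, then, H3K4me1 was higher inside the border than outside it. The first 6 kb inside held 1.71 times the level deeper than 30 kb in both experiments, 2.20 times in Exp1 and 1.52 times in Exp2, but 0.945 times with islands at or below the median p-value. A rise of H3K4me1 just inside the border thus depends on which islands are kept. H3K27me3 covered 93.2% of H3K9me3 length deeper than 100 kb, 43.1% of the last 3 kb inside, 28% of the first 3 kb outside and 5.08% at 50 to 100 kb outside, so it reached past the border. Outside H3K27me3 the course of H3K4me1 was alike, from 0.886% in the first 3 kb outside the border to 9.12% beyond 500 kb. Within H3K27me3 it ran from 0.908% to 7.90%. At borders placed within 3 kb of each other in the 2 experiments, H3K4me1 covered 0.928% of the last 3 kb inside and 1.18% of the first 3 kb outside.

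**Figure D3:**
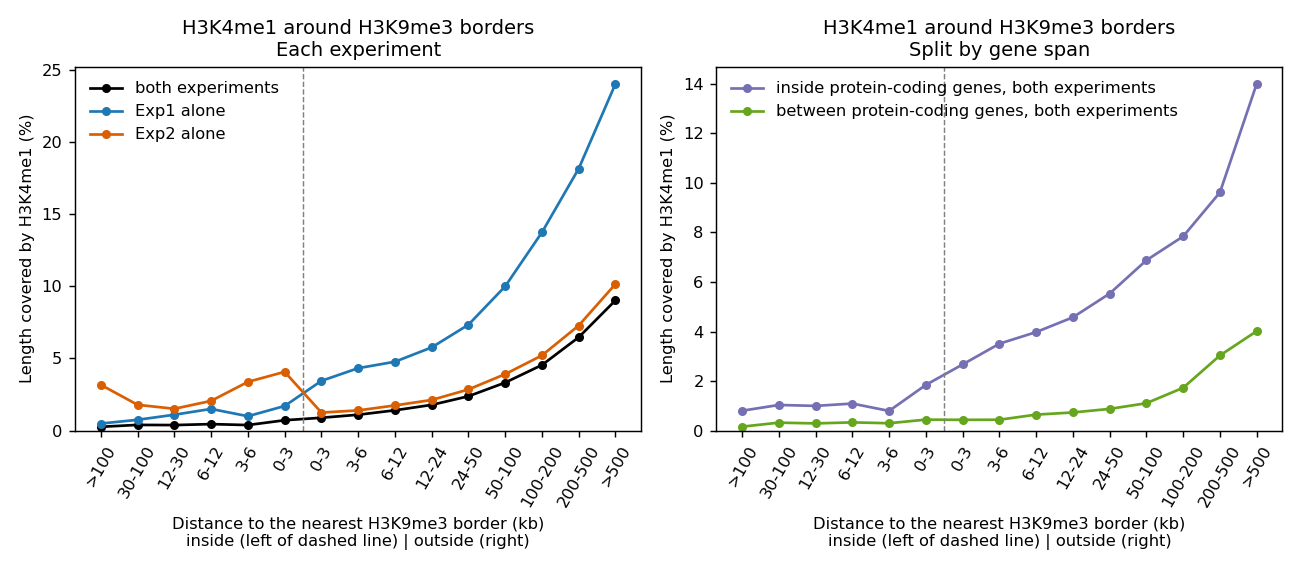
Length covered by H3K4me1 (%, vertical axes) by distance to the nearest H3K9me3 border (kb, horizontal axes), inside H3K9me3 to the left of the dashed line and outside to the right. Left, both experiments (black), Exp1 (blue) and Exp2 (orange), which reach 9.03, 24 and 10.2% beyond 500 kb; right, both experiments split into bases inside and between protein-coding genes, which reach 14 and 4.02%.

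Single borders gave the same picture. Of 11948 borders in both experiments, 7409 (62.0%) were placed within 3 kb of each other in the 2 experiments. A region of H3K4me1 ran across 90 borders (0.753%) in both, across 463 of 19344 (2.39%) in Exp1 and across 203 of 11212 (1.81%) in Exp2. H3K4me1 began within 10 kb outward of 4.51% of borders in both experiments, 12.5% in Exp1 and 5.93% in Exp2. Within 100 kb the shares were 22.1%, 40.6% and 26.1%. From 7535 borders (63.1%) the next H3K9me3 region was reached before any H3K4me1. Where H3K4me1 came first, its median distance was 70.8 kb in both experiments, 27.2 kb in Exp1 and 65.8 kb in Exp2.

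Measured from the other side, H3K4me1 regions outside H3K9me3 lay a median of 335 kb from the nearest border, against 180 kb for all bases outside. The medians were 155 against 86.6 kb in Exp1 and 327 against 183 kb in Exp2. Of 32775 such regions, 527 (1.61%) lay within 10 kb of a border and 11736 (35.8%) beyond 500 kb. The near ones had a median width of 2.2 kb, and those beyond 500 kb one of 2.6 kb. In the stretches between H3K9me3 regions, H3K4me1 covered more of the length the wider the gap was. It covered 0.466% of gaps of 24 to 50 kb, 1.51% at 100 to 300 kb, 3.82% at 300 kb to 1 Mb and 7.96% in wider gaps. The share of gaps with any H3K4me1 also rose, but a wider gap has more room to hold some. H3K4me1 lay in 74 of 1482 gaps of 24 to 50 kb (4.99%), in 30.1% of gaps of 100 to 300 kb, in 72.7% of gaps of 300 kb to 1 Mb and in 526 of 555 wider gaps (94.8%).

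The 1.72 Mb with both marks fell into 605 regions with a median width of 2 kb. Of these, 516 lay wholly inside H3K9me3 and 89 crossed a border. H3K27me3 lay in 452 (74.7%), H3K4me3 in 322 (53.2%) and all 4 marks in 249 (41.2%). By length, H3K4me3 covered 46.9% of the shared bases, against 25% of H3K4me1 outside H3K9me3 and 0.514% of H3K9me3 without H3K4me1. H3K27me3 covered 77.4%, 6.64% and 68.4% of the same classes. Protein-coding genes held 38.3% of the shared length and 77.7% of the H3K4me1 length outside H3K9me3. Without bases in all 4 marks, which made up 37.5% of the shared length, the log2 ratio to the computed length was -4.09 instead of -3.42. Chromosome 17 held 75 of the 605 regions and 17.1% of the shared length.

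Several of the widest shared regions lay over repeated genes. The 10 widest regions spanned 336 kb, 19.5% of the shared length. The widest, chr8:123537201-123624400, covers 87.2 kb and 48 genes of 5S ribosomal RNA, and carried all 4 marks over its whole length. The region chr1:171063401-171086400 spans 23 kb with 15 tRNA genes and the immunoglobulin receptor gene Fcgr3, and had all 4 marks over 22.6 kb. The region chrX:169971601-170022600 covers the 3′ end of Mid1 and Erdr1 over 51 kb, with H3K4me3 over 49.4 kb and no H3K27me3. Tandem and copied genes like these share reads, so the position of the marks among the copies is uncertain. What copies add to the shared length was not tested.

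Protein-coding genes seldom held both marks. Of 21887 genes, H3K4me1 lay in the span of 13234 (60.5%) in both experiments and H3K9me3 in that of 3514 (16.1%). Both lay in 844 (3.86%), where independent marks would give 2125, an odds ratio of 0.153. Shared bases were found in 284 (1.3%). Exp1 alone gave 1799 genes with both (8.22%, where independent marks would give 3304) and Exp2 alone 1206 (5.51%, against 2388). The 844 were 6.38% of the genes with H3K4me1 and 24% of those with H3K9me3. H3K4me1 alone lay in 12390 genes, H3K9me3 alone in 2670 and neither in 5983.

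Genes with both marks were long. Their median span was 142 kb, against 22.6 kb for genes with H3K4me1 alone, 5.40 kb for those with H3K9me3 alone and 17.2 kb for all. Of 990 genes over 200 kb, 334 (33.7%) held both, and of 7925 under 10 kb 48 (0.606%) did. H3K4me1 lay in 85.8% and H3K9me3 in 42.7% of the long genes, and in 42.3% and 21.1% of the short ones. The number that independent marks would give was not computed by length class. In 560 of the 844 the marks shared no base and lay a median of 32.1 kb apart, up to 839 kb. Within the 844 genes the marks shared 675 kb, 0.527 of the 1283 kb that their coverage of each gene would give. As bases covered in both experiments, the marks thus shared less length in these genes than their coverages would give. In a gene wholly inside H3K9me3, such as Unc93a2, the computed length equals the H3K4me1 length, so shared and computed length cannot differ. Overlapping spans, such as those of Zfp978 and Zfp991, count the same bases more than once. The genes were also chosen for holding both marks, so the 0.527 cannot be compared with the ratio across the genome. The within-gene ratio was not computed per experiment. Shared bases lay in 862 of the 1799 genes with both marks in Exp1 and in 814 of 1206 in Exp2. Among 652 genes whose start is known, the start held H3K4me1 and no H3K9me3 in 351, both marks on the same bases in 154, H3K9me3 and no H3K4me1 in 32 and neither in 115. In the 418 with known strand and no shared base, H3K4me1 lay nearer the start in 322 (77%). Its median position was 13.7% along the gene, and that of H3K9me3 57.4%.

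The genes with the most shared length included copied genes wholly inside H3K9me3, zinc finger genes, and genes with H3K9me3 over a small share of the span. With islands at or below the median p-value of their list, 14 of these 15 genes had no shared base and Slc22a29 kept 6.4 kb. Of 26 named genes with shared bases, 25 had none in that setting, the zinc finger and imprinted genes named below included. Unc93a2 (chr17:7363646-7397322) held 21.1 and 29.1 kb of H3K4me1 in Exp1 and Exp2 and lay wholly in H3K9me3 in each. Its paralog Unc93a (chr17:13108617-13143780) held 21.4 and 26.8 kb, also wholly inside. Both lacked H3K4me3 and lay wholly in H3K27me3. Mid1, a microtubule-associated ubiquitin ligase gene (chrX:169685199-169990798), held 95.8 and 24 kb of H3K4me1 and 37.8 and 19.8 kb of H3K9me3, with 19.2 kb shared in both experiments. Mid1 spans the boundary of the pseudoautosomal region in this strain, and a copy of part of it lies on Y, so these values are uncertain.

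Abcg2, which encodes an efflux transporter (chr6:58584491-58692451), had both marks on the same bases over 11.8 and 16.6 kb in Exp1 and Exp2. Tcp10c, a t-complex gene (chr17:13354572-13377223), held 8.62 and 22.7 kb, Slc22a29, of an organic anion transporter family, 11.2 and 9.18 kb, and Mrs2, a mitochondrial magnesium channel gene, 8.56 and 9.40 kb. Zfp978 and Zfp991, whose spans overlap on chromosome 4, held 7.40 and 6.71 kb in Exp1 and 46.5 and 34.3 kb in Exp2. Hjurp, which encodes the chaperone of the centromeric histone CENP-A (chr1:88258856-88277644), held 6.24 and 18.8 kb and lay wholly in H3K9me3. The shared length in these genes was the larger in Exp2 for Abcg2, Tcp10c, Mrs2, Zfp978, Zfp991 and Hjurp, and the larger in Exp1 for Slc22a29. Gm39469, Klhdc4, 3300002I08Rik, Pisd and Chd9 complete the 15 genes with the most shared length, at 5.60 to 6.62 kb in both experiments. Pisd, which encodes a phospholipid-synthesising decarboxylase, and Chd9, a chromatin remodeller gene, held H3K9me3 over 11.6% and 2.65% of their spans, with H3K4me1 and no H3K9me3 at their starts.

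**Figure D4:**
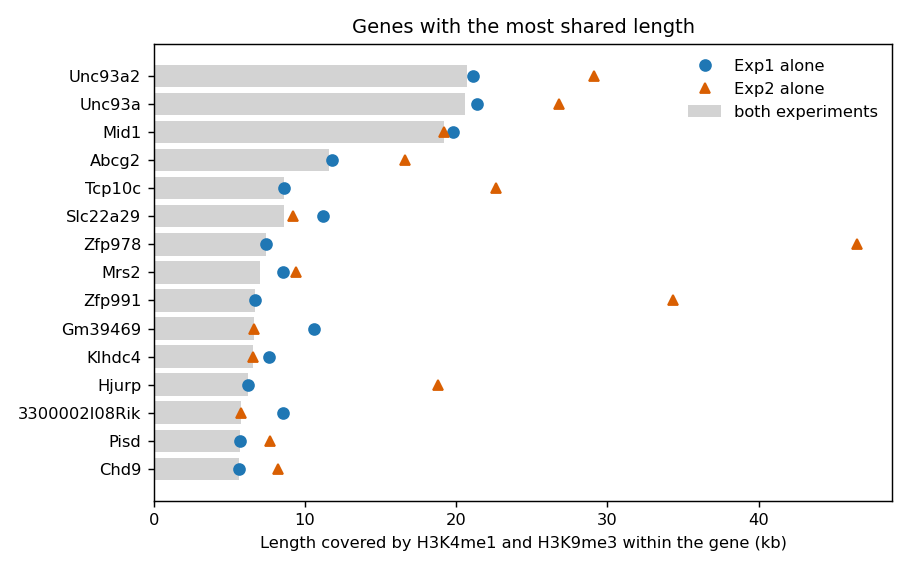
Length covered by H3K4me1 and H3K9me3 together within the gene (kb, horizontal axis) for the 15 protein-coding genes with the most such length; grey bars are bases shared in both experiments, circles Exp1 alone and triangles Exp2 alone. The bars run from 20.7 kb at Unc93a2 to 5.60 kb at Chd9, and Zfp978 and Zfp991 reach 46.5 and 34.3 kb in Exp2.

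Other genes were chosen for a border placed within 3 kb in the 2 experiments and for H3K4me1 with no shared base in both. They were ranked by H3K4me1 length, so the long H3K4me1 tracts and the lack of shared bases follow from the choice. The H3K9me3 region in each was short. Ppm1h, a phosphatase gene (chr10:122677428-122945795), held 171 and 104 kb of H3K4me1 in Exp1 and Exp2 beside 12 and 9 kb of H3K9me3, and the marks came within 1 kb of each other. Sv2b, a synaptic vesicle protein gene (chr7:75114894-75309262), held 145 and 84.3 kb beside 30 kb of H3K9me3 in each experiment, 4.8 kb away. Sdk2, which encodes a cell adhesion protein of retinal synaptic layers (chr11:113776374-114067029), held 114 and 70.4 kb of H3K4me1 and 9 and 12 kb of H3K9me3, 9 kb apart. Rps6ka2, Sorcs2, Atp8a2, Arhgap32, Sgip1, Xkr6 and Setbp1 gave the same arrangement, with 4.32 to 15 kb of H3K9me3 and 54.6 to 94.6 kb of H3K4me1 in both experiments and gaps of 2.2 to 32 kb. The gene table gives no exons, so intron and exon positions were not assigned. Single experiments did share bases in most of these genes. In Exp1 these were Sv2b (6.8 kb), Ppm1h and Arhgap32 (0.2 kb each). In Exp2 they were Sdk2 (4.2 kb), Xkr6 (4 kb), Atp8a2 (3.4 kb), Sgip1 (3 kb) and Sorcs2 (2.2 kb). Rps6ka2 and Setbp1 shared none in either experiment.

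Gene groups were then described beside all 21887 genes (60.5% with H3K4me1, 16.1% with H3K9me3, 3.86% with both). Genes of Müller glia and rods and the group named H3K4 and H3K9 enzymes held no H3K9me3 in both experiments. In Exp1 it lay in 2 Müller glia genes and 1 rod gene, and in Exp2 in 1 gene of the enzyme group. Of 24 Müller glia genes 20 held H3K4me1 and 0 H3K9me3 in both experiments, and Rlbp1, the retinaldehyde-binding protein gene, held 15.4 and 1.45 kb of H3K4me1. Sox9 held 5.19 and 3.19 kb and the water channel gene Aqp4 7.60 and 2.80 kb. All 25 rod genes held H3K4me1 and 0 H3K9me3, among them Nrl (5.20 and 4.80 kb) and Crx (10.2 and 6.45 kb). Of 13 cone genes 10 held H3K4me1 and 1, the channel subunit gene Cngb3, H3K9me3 (114 kb in both experiments). Of 14 genes of microglia and endothelium 6 held H3K4me1 and 1, the receptor gene Tek, H3K9me3 (78 kb). Of 30 genes in the group named H3K4 and H3K9 enzymes, 27 held H3K4me1 and 0 H3K9me3 in both experiments. Besides enzymes, this group includes genes of proteins that do not write or erase H3K4 or H3K9 methylation, such as Trim28, Cbx5 and Daxx. Among 26 genes of inner retinal neurons, 21 held H3K4me1, 3 H3K9me3 and 2 both marks in both experiments. H3K9me3 lay in 5 of the 26 in Exp1 and in 3 in Exp2. Cabp5 held H3K9me3 alone (22.9 kb). Cngb3, Tek and Cabp5 are named after their values were seen. The 2 with both were Isl1, a transcription factor gene (H3K4me1 1.49 and 0.488 kb, H3K9me3 5.73 and 11.4 kb), and Grm6, the glutamate receptor gene of ON bipolar cells (3.03 kb in each, and 1.21 and 15.8 kb). In Isl1 and Grm6 the marks shared no base in Exp1, and H3K9me3 of Exp2 covered the whole span.

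Long neuronal genes were the group with the most genes of both marks, 50 of 61, with shared bases in 3. Their median length was 1139 kb, against 17.2 kb for all genes, and they held H3K4me1 over a median of 0.353% of the span and H3K9me3 over 3.99%. Cntnap2, a neurexin-family adhesion gene (chr6:45060061-47301393), held 29.5 and 3.54 kb of H3K4me1 and 321 and 69 kb of H3K9me3, 553 kb apart. Dlg2, a postsynaptic scaffold gene, held 109 and 17.2 kb beside 114 and 48 kb. Lrp1b, a lipoprotein receptor family gene, held 11.4 and 9 kb beside 552 and 219 kb, and Cntnap5b 8.36 and 10.6 kb beside 339 and 237 kb with 3.6 kb shared in both experiments. Pcdh7 (3.86 kb) and Nkain2 (1.4 kb), the others with shared bases, are named after their values were seen. H3K9me3 in Cntnap2, Dlg2 and Lrp1b was more than 2 times as long in Exp1 as in Exp2.

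**Figure D5:**
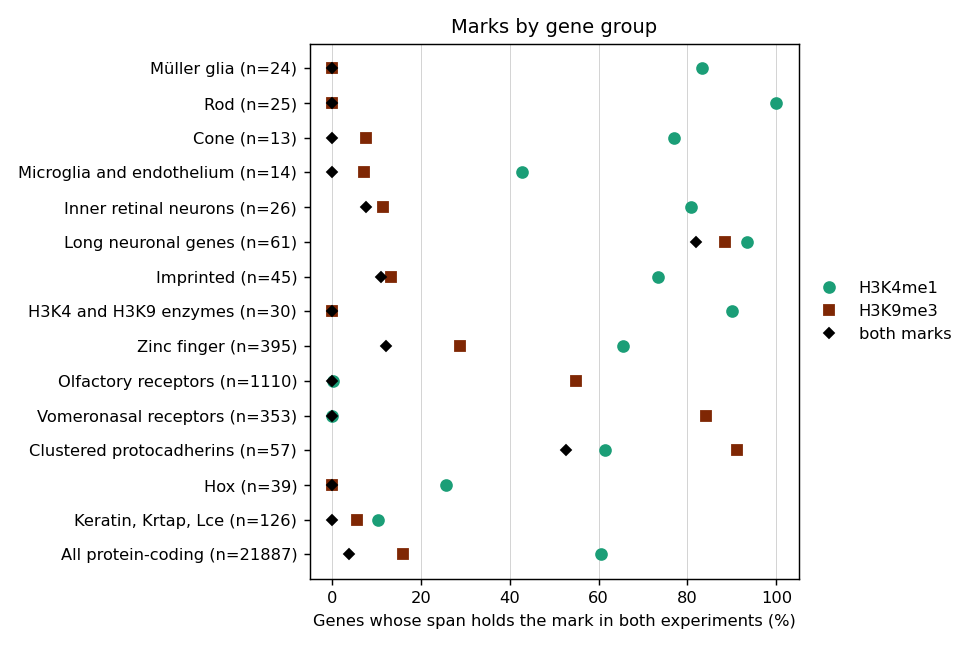
Share of genes (%, horizontal axis) whose span holds H3K4me1 (green circles), H3K9me3 (brown squares) or both (black diamonds) in both experiments, for each gene group and for all protein-coding genes, with the number of genes in parentheses. Rod genes reach 100% H3K4me1 and 0% H3K9me3, vomeronasal receptors 0% and 84.1%, and long neuronal genes are high for both marks (93.4 and 88.5%).

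Both marks lay on the same bases in 36 of 395 zinc finger genes (9.11%) and 5 of 45 imprinted genes (11.1%), against 1.3% of all genes. Of the zinc finger genes 259 held H3K4me1, 114 H3K9me3 and 48 both. Zfp2 (chr11:50897265-50916216) lay wholly in H3K9me3 and held 5.02 and 4.22 kb of H3K4me1, and Zfp110 held 5.64 and 2.40 kb in the same setting. Zfp97, Zfp932 and Zfp935 were alike, with 1.8 to 2.4 kb shared in both experiments at starts that also carried H3K4me3. In Zfp26, Zfp946 and Zfp958 the marks were apart by 8.4 to 19.8 kb, with H3K4me1 at the start. Among 12 zinc finger genes with no shared base and known strand, H3K4me1 lay nearer the start in 11, at a median of 6.35% along the gene against 80.5% for H3K9me3. Of 18 genes in a list that shares most of its members with the zinc finger genes, 10 held H3K4me1, 12 H3K9me3 and 7 both.

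Of 45 imprinted genes 33 held H3K4me1, 6 H3K9me3 and 5 both, all 5 with shared bases. Of the 5, 4 lie on chromosome 7 in the region of the Prader-Willi genes, and the other is Klf14 (0.39 kb shared), which with Ndn, the 1 with H3K9me3 alone, is named after its values were seen. Mkrn3 held 2.01 and 1.40 kb of H3K4me1, Peg12 2.51 and 0.91 kb, and Magel2 0.8 and 2.6 kb, each wholly inside H3K9me3 in both experiments. Snrpn, a splicing factor gene whose annotated span is 468 kb, held 2.6 and 1.2 kb, with H3K9me3 over 90.5% of the span. H3K4me3 accompanied the shared bases at the starts of Mkrn3 and Peg12 and not at that of Magel2. The parental alleles cannot be told apart in these lists.

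Clustered receptor genes were the reverse of retinal genes. Of 1110 olfactory receptor genes, 609 held H3K9me3, 3 H3K4me1 and 1 both, namely Olfr1033 with 0.161 kb shared. Olfr94 (0.966 kb) and Olfr287 (2 kb), the others with H3K4me1, are named after their values were seen. Of 353 vomeronasal receptor genes, 297 held H3K9me3 and 0 H3K4me1 in both experiments, with H3K4me1 at 1 gene in Exp1 and 16 in Exp2. All 57 clustered protocadherin genes lie on chromosome 18, where 35 held H3K4me1, 52 H3K9me3 and 30 both with no shared base. Their annotated spans are nested, so Pcdha1, Pcdha2, Pcdha3 and Pcdha4 hold the same 28 kb of H3K4me1 in Exp1 and 12 kb in Exp2, 68 kb from H3K9me3, and count as 1 locus. Of 39 Hox genes 10 held H3K4me1 and 0 H3K9me3 in both experiments, with H3K9me3 in 39 in Exp1 and in 0 in Exp2. Of 126 keratin, keratin-associated and late cornified envelope genes, 13 held H3K4me1, 7 H3K9me3 and 0 both.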

How the data were processed

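The authors deposited 1 list of SICER islands per ChIP library, each island with a position and a p-value, which may be a q-value, since the sources do not say. FastQC, BWA 0.7.5a, SAMtools 1.3.1, bedtools 2.17, SICER and mm10 are named, per the submitters' processing notes. The control, the SICER settings and how repeated reads were handled: not given in the sources used here. The 2 input libraries were not analysed here. Window sizes and gaps were read from the islands.

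Islands were laid on bins of 200 bp with Python 3.11.15, NumPy 2.4.6 and pandas 2.3.3, leaving out the first 3 Mb of each chromosome. Gene spans came from a RefSeq table of GRCm38.p6 (21887 protein-coding genes), and starts and strand from a RefSeq promoter table that matched 17492. A gene held a mark when an island overlapped its span. The scripts were tested on simulated data.

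Named genes were the 15 with the most shared length, 10 with a border placed alike and H3K4me1 with no shared base, ranked by H3K4me1 length, up to 4 with both marks in each of 15 lists, and 8 markers, of which 1 is not reported here. Members, lists and alternatives were chosen with earlier results of these data known. No test was run between marks: values are described per experiment.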

Additional observations from a re-analysis of the deposited data

How the results depend on the processing

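The log2 ratio of shared to computed length (-3.42) lay between -3.19 and -1.11 when 1 experiment was left out, at -1.95 with a mark in either experiment, and at -1.46 with Exp2 islands at or below p 0.05. The share of H3K4me1 in H3K9me3 (1.45%) lay between 2.38% and 7.99% with 1 experiment left out, at 6.06% in either and at 6.20% with those Exp2 islands. Mean H3K4me1 of 200 kb windows free of H3K9me3, divided by that of windows at least 50% covered, fell from 17.2 to 3.73 without Exp1 (18.6 without Exp2) and to 4.80 with those Exp2 islands.

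Outside the border, the ratio of near to far H3K4me1 (0.169) lay between 0.193 and 0.242 with 1 experiment left out, at 0.250 in either experiment, 0.116 with islands at or below the median p-value, 0.121 with H3K9me3 trimmed by 3 kb, and 0.230 at borders placed alike. Inside, the ratio (1.71) lay between 1.52 and 2.20 with 1 experiment left out, and reversed to 0.945 with islands at or below the median p-value. It was 2.34 without bins in all 4 marks, 1.06 for Exp2 at or below its median p-value, and 2.23 at borders placed alike. The median distance of H3K4me1 (335 kb) lay between 155 and 327 kb with 1 experiment left out, at 153 kb in either, 841 kb at or below the median p-value and 759 kb for Exp2 at its median.

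Genes with both marks (844) numbered 1206 to 1799 with 1 experiment left out, 2149 in either, 231 at or below the median p-value, 319 for Exp2 at its median, 322 at gene ends, 154 where each mark had to cover 10% of the span and 175 among isolated genes. Genes with shared bases (284) numbered 814 to 862 with 1 experiment left out, 1428 in either, 55 at or below the median p-value, 188 and 99 for Exp1 and Exp2 at their medians, 677 for Exp2 at or below p 0.05, 88 at 10% of the span and 84 among isolated genes.

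The replicate block, which combines the marks within each experiment, gave 0.217 outside the border, 1502.5 genes with both marks (mean of the experiments) and 838 with shared bases. Crossed pairing gave 0.208, 1452 and 783.5. The correlation of same-numbered deviations was -0.12 over 13304 windows, so these data do not show that the numbers pair the libraries. Settings for single experiments by p-value and without bins in all 4 marks were chosen after seeing the data. Over 56 named genes, 62 of 168 values moved by more than the spread between experiments. The cause was not tested in any case. Depth is unknown, so absence of an island is not absence of a mark, and the 3 kb steps of H3K9me3 limit how closely a border is placed.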
